A study of Mus musculus with 12 samples.

Results

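The embryonic globins are 3 mouse genes, Hbb-y, Hbb-bh1 and Hba-x. They were taken as every probe set annotated to 1 of these symbols alone, which gave 7 of the 45101 probe sets on the array, 3 for Hbb-y, 3 for Hbb-bh1 and 1 for Hba-x. The genes were picked because their signals differed between the groups and among the cultured cells in these data. Their levels are therefore given as a description, without a test.

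Haemoglobin carries oxygen in red cells and is built of alpha-like and beta-like globin chains around haem. In the mouse embryo the first red cells, the primitive red cells of the yolk sac, use the embryonic chains, the alpha-like chain of Hba-x and the beta-like chains of Hbb-bh1 and Hbb-y. As primitive red cells mature, transcripts of Hbb-bh1 and Hba-x come first and those of Hbb-y and the adult alpha genes gain later, and definitive red cells of the fetal liver use the adult genes.

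Total RNA was measured on 12 Affymetrix 3' expression arrays, 3 for each of 4 kinds of male mouse germ cell or its cultured counterpart. Spermatid-like cells (SLC) were made by differentiation in culture, and round spermatids (RS), the haploid cells that follow meiosis, came from testis of BDF1 males aged 3 weeks. Primordial germ cell-like cells (PGCLC) were taken on day 6 of differentiation in culture, and primordial germ cells (PGC), the embryonic precursors of sperm, came from the genital ridge of BDF1 males at E12.5. Every sample was sorted by FACS, with the gate not named in the labels, and the labels call the 3 samples of a group biological replicates. The labels used here give no strain or starting cell line for the cultured cells, no time in culture for SLC, and no allele or agent for any group.

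In the beta-globin cluster on chromosome 7 the annotated genes run Hbb-bt, Hbb-bs, Hbb-bh2, Hbb-bh1 and Hbb-y, so that Hbb-bh1 and Hbb-y are neighbours. On chromosome 11 Hba-x precedes the adult genes Hba-a1 and Hba-a2. The 250 bases before the annotated start of each gene are printed 5′ to 3′ on the gene's strand from RefSeq (GRCm38.p6), because these promoters are known targets of the red cell regulators measured here. Of the 3 genes, 2 had an entry. The Hbb-y window is chr7:103853208-103853457 on the minus strand and the Hba-x window is chr11:32276350-32276599 on the plus strand. Capitals mark 4 short motifs searched on both strands, namely the box CCAAT, the Klf1-type site CACCC, the Gata factor site GATA and the TATA-type run ATAAA.
Hbb-y: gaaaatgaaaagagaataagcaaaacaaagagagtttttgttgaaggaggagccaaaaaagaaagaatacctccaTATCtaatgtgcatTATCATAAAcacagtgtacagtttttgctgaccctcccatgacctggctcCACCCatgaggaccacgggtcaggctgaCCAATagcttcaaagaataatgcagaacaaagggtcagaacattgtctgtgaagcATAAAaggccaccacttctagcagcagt
Hba-x: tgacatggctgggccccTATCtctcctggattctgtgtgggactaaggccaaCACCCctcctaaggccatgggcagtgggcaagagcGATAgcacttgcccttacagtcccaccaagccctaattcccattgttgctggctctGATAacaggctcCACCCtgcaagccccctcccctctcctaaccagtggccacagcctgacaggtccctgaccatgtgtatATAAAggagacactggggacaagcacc

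The Hbb-y window held GATA on the opposite strand at -175 to -172 and at -161 to -158, counted back from the start site, with CACCC at -111 to -107, CCAAT at -83 to -79 and ATAAA at -157 to -153 and at -28 to -24. The Hba-x window held 3 GATA matches, 2 CACCC matches and 1 ATAAA match at -27 to -23. No CCAAT lay in the Hba-x window. No match overlapped another. Among 32851 windows of the same length, 33.8% held CCAAT, 52% held CACCC, 53.6% held GATA, 37.3% held ATAAA and 3.84% held all 4, so each motif alone is common. A match is a run of letters and was not tested for binding.

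Values are the authors' intensities per probe set, on arrays scaled to a common trimmed mean. Values under 30.7 units, the 25th percentile of the whole table, were treated as a floor for every log2 difference, and values at or under the floor have no order. Probe sets ending in _x_at or _s_at can hold probes that also match related genes, so signal of close globin relatives cannot be told apart there. Levels of different probe sets are not set against each other.

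The PGCLC arrays stood apart from each other. Across genes, which are not independent replicates, PGCLC replicates 1, 2 and 3 correlated with the PGC arrays at 0.884 to 0.885, 0.973 to 0.974 and 0.926 to 0.928, and PGC arrays with each other at 0.986 to 0.988. On the PGCLC arrays 30.1% of genes had replicate 2 highest and replicate 1 lowest, the order of Hbb-y, and 32.1% had the reverse, the order of Hbb-bh1. The log2 ratio of 3' to 5' Gapdh control probe sets, a sign of RNA quality, lay between -0.56 and -0.43 in SLC, between -0.0083 and 0.20 in RS, between -0.37 and -0.29 in PGCLC and between -0.43 and -0.36 in PGC. The RS arrays thus stood apart in this ratio, but not in that of the Actb control probe sets. The Actb ratio lay between 0.33 and 0.60 in SLC and between 0.46 and 0.49 in RS. In PGCLC it lay between 0.37 and 0.63, and in PGC between 0.47 and 0.70. The part of RNA quality in the comparisons with RS was not tested. The spermatid markers separated the stages as labelled. All 6 rose in RS against PGC, among them Tnp1, Prm2 and Tnp2, which encode sperm chromatin proteins and were at least 1011-fold, 924-fold and 793-fold higher in RS, and 0 of 6 were called in PGCLC against PGC or in SLC against RS by limma. At an unadjusted p under 0.05, 1 was higher and 1 lower in PGCLC against PGC, and 4 were lower in SLC against RS.

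Hbb-y was high in the fetal germ cell samples and, in PGCLC, varied over more than 10-fold among the 3 cultures. Its brightest probe set, 1436717_x_at, gave 1136, 14997 and 7843 units on PGCLC replicates 1, 2 and 3, against 11299, 12097 and 11552 units on the PGC arrays. The PGC arrays lay close together, PGCLC replicate 2 lay above all of them, and replicate 1 lay far below. The same probe set gave 3.33, 2.80 and 10.7 units in SLC, against 1.53, 23.7 and 15.5 units in RS. All 6 of these values lie at the floor.

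The other Hbb-y probe sets showed the same order. The probe set 1436823_x_at gave 1095, 15263 and 7851 units on PGCLC replicates 1, 2 and 3, against 10927, 11423 and 11661 units in PGC. The probe set 1450621_a_at gave 252, 4569.6 and 2065 units in PGCLC, against 3766, 3824 and 3660.3 units in PGC. On every Hbb-y probe set the PGCLC range enclosed the whole PGC range, with replicate 2 highest and replicate 1 lowest. PGCLC replicate 2 exceeded replicate 1 by 13.2-fold, 13.9-fold and 18.2-fold on the 3 probe sets in the order given. In SLC and RS the single value of these probe sets above the floor was 43.2 units, for 1450621_a_at on RS replicate 1.

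As group means, 1436717_x_at stood at 7992 ± 6931 units in PGCLC and 11649 ± 408 units in PGC (SD, n = 3 each). The coefficient of variation was 86.7% in PGCLC and 3.50% in PGC. The mean log2 difference, PGCLC minus PGC, was -1.19, and it was -1.16 and -1.49 for the other probe sets. For 1436717_x_at it was -0.10 without PGCLC replicate 1 and -1.96 without replicate 2. Between RS and PGC the log2 difference was -8.57, at least 379-fold lower in RS. These RNAs come from bulk samples, in which fewer cells of a type and less RNA per cell cannot be told apart. Which cells of a sample gave the globin signal was not tested.

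**Figure D1:**
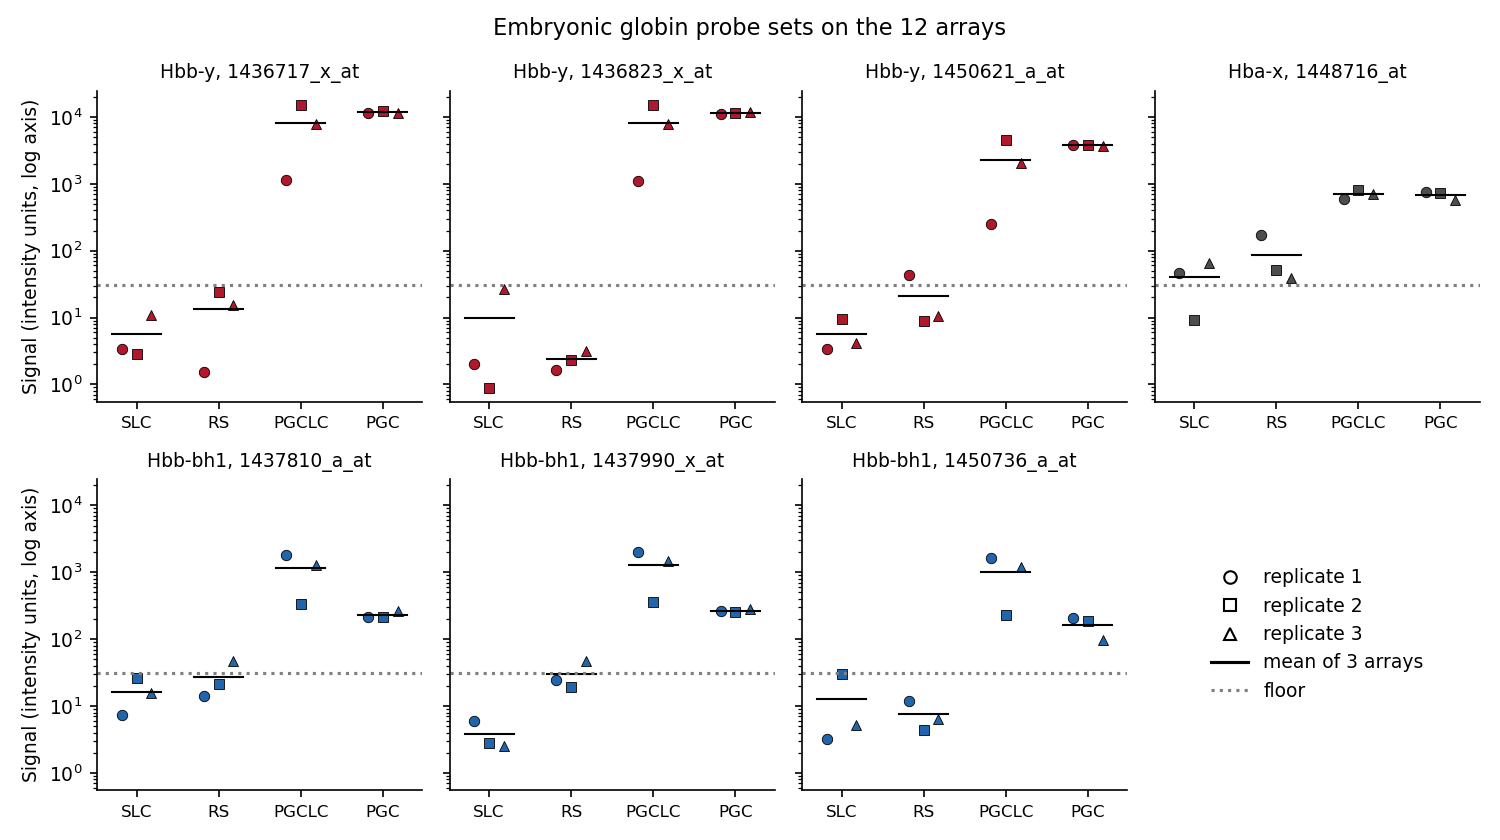
Signal of each embryonic globin probe set on each of the 12 arrays, in intensity units on a log axis, with the groups SLC, RS, PGCLC and PGC side by side, symbols for replicates, short lines for group means and a dotted line at the floor. The PGC points lie together, and the PGCLC points of Hbb-y and Hbb-bh1 spread widely.

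Hbb-bh1, the other embryonic beta-like gene, was brighter in every PGCLC culture than in any fetal sample, though replicate 2 lay close to the fetal samples. Its brightest probe set, 1437990_x_at, gave 2008, 353 and 1476 units on PGCLC replicates 1, 2 and 3, against 259, 256 and 279.9 units in PGC. Replicate 1 was highest and replicate 2 lowest, the reverse of the order of Hbb-y, and no PGCLC value lay within the PGC range. The same probe set gave 5.98, 2.84 and 2.53 units in SLC, against 24.8, 19.0 and 46.5 units in RS, of which only RS replicate 3 was above the floor.

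Both other Hbb-bh1 probe sets repeated this order. The probe set 1437810_a_at gave 1818, 335 and 1273 units in PGCLC, against 213, 217 and 267 units in PGC. The probe set 1450736_a_at gave 1630.1, 233 and 1199 units in PGCLC, against 207, 185 and 96.1 units in PGC. On each of the 3 probe sets every PGCLC array lay above every PGC array, but replicate 2 did so narrowly, with 233 against 207 units on 1450736_a_at. The share of all genes with such a separation was not counted, and the gene was chosen on this contrast. The median signal of the whole array was 104 to 107 units in PGCLC and 83.9 to 86.4 units in PGC, and its part was not tested. PGCLC replicate 1 exceeded replicate 2 by 5.68-fold, 5.43-fold and 6.98-fold on the 3 probe sets in the order given.

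The mean of 1437990_x_at was 1279 ± 845 units in PGCLC and 265 ± 12.8 units in PGC (SD, n = 3 each). Relative to the PGC mean, replicates 1, 2 and 3 stood at 7.57-fold, 1.33-fold and 5.56-fold. PGCLC minus PGC was 1.94 on the log2 scale for this probe set and 1.99 and 2.32 for the others. For 1437990_x_at it was 1.45 without PGCLC replicate 1 and 2.70 without replicate 2. Beside these values, 11.9% of the 14197 genes tested were called in PGCLC minus PGC (10.3% higher and 1.6% lower), where a call needs a limma adjusted p under 0.05 and a change of at least 2-fold. The members were chosen on this contrast, so nothing is read from their count. RS minus PGC was -2.91 for 1437990_x_at, at least 7.51-fold lower in RS.

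Hba-x, the embryonic alpha-like gene, was steady across the PGCLC cultures. Its probe set, 1448716_at, gave 587, 807 and 709 units on PGCLC replicates 1, 2 and 3, against 743, 729 and 569 units in PGC. The ranges overlap, and the PGCLC arrays spread no wider than a factor of 1.38. Within that spread replicate 2 was highest and replicate 1 lowest, the order of Hbb-y and of 30.1% of all genes. Means were 701 ± 110.3 units in PGCLC and 680.2 ± 96.8 units in PGC (SD, n = 3 each). The log2 difference of 0.04 is smaller than the spread of either group, and its sign turns under median centring and quantile normalization.

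Hba-x was above the floor on all 3 RS arrays, as no other member was. It gave 45.7, 9.32 and 64.5 units in SLC, against 169.8, 52.0 and 39.2 units in RS. RS and SLC arrays overlapped, and every one of these 6 values was below every PGCLC and PGC value. The share of all genes with such a separation was not counted, and by limma 37.2% of genes were lower in RS minus PGC. For Hba-x RS minus PGC was -3.27, or 9.62-fold lower by mean log2 values and 7.82-fold by mean signals.

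In order of level, Hbb-y stood highest in PGC and PGCLC, whose arrays overlapped, with RS and SLC at the floor except for the 43.2 units of 1450621_a_at on RS replicate 1. Hbb-bh1 stood highest in PGCLC, then in PGC without overlap, though PGCLC replicate 2 lay near the PGC arrays. RS and SLC came last for Hbb-bh1, at or near the floor. Hba-x stood together in PGCLC and PGC, and lower in RS and SLC, which overlapped. All 7 probe sets passed the filter on low values, which asks for a signal over 92.0 units on at least 3 arrays of any group. Fitted on the same table, 68.6% of genes were called in RS minus PGC (31.5% higher and 37.2% lower) and 26.8% in SLC minus RS (23.5% higher and 3.32% lower).

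The 2 beta-like genes moved apart among the cultures. Taken as log2 of Hbb-y over Hbb-bh1 relative to the PGC mean, the balance was -6.28 on PGCLC replicate 1, -0.05 on replicate 2 and -3.05 on replicate 3. On the PGC arrays it lay between -0.09 and 0.10. The balance on PGCLC replicate 2 thus lay within the PGC range, and the other PGCLC arrays lay outside it. Between PGCLC replicates 2 and 1 a change at least as large upward as that of Hbb-y was seen in 0.268% of the genes tested, and one at least as large downward as that of Hbb-bh1 in 1.55%. A change upward of at least that of Hba-x was seen in 24.1%. For comparison, 9.05% of genes were 2-fold higher and 13.7% were 2-fold lower on replicate 2. The members were chosen for their signal on these arrays, so these shares only describe them and are no test.

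**Figure D2:**
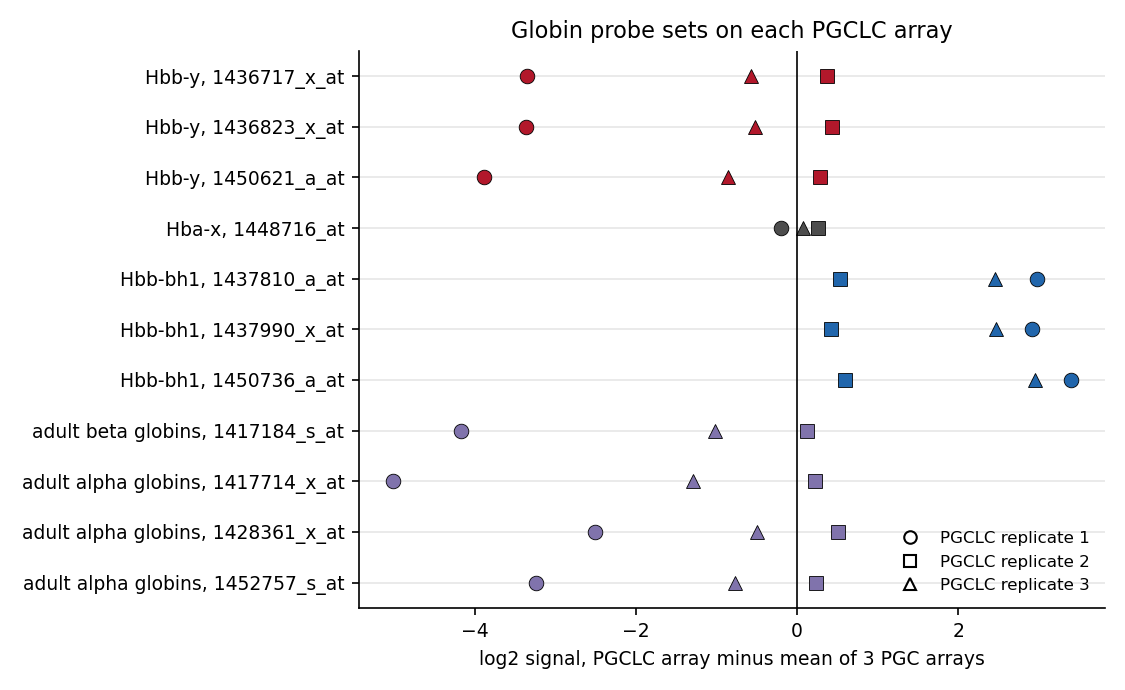
Log2 signal of each embryonic globin and each shared adult globin probe set on PGCLC replicates 1, 2 and 3, as the difference from the PGC mean of the same probe set. Hbb-y and the shared adult probe sets are lowest on replicate 1 and highest on replicate 2, Hbb-bh1 runs the other way, and Hba-x stays near 0.

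The adult globin genes were read mainly through probe sets annotated to several genes at once, so no single gene is named from them. The probe set 1417184_s_at, annotated to 4 adult beta-globin genes together, gave 122, 2393 and 1086 units on PGCLC replicates 1, 2 and 3, against 2226, 2059 and 2344 units in PGC. The probe set 1417714_x_at, annotated to both adult alpha-globin genes together, gave 95.8, 3622 and 1276 units in PGCLC, against 3018, 3031 and 3307 units in PGC. Both had replicate 2 highest and replicate 1 lowest, the order of Hbb-y.

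PGCLC replicate 2 exceeded replicate 1 by 19.7-fold on 1417184_s_at and by 37.8-fold on 1417714_x_at. On 1428361_x_at and 1452757_s_at, both annotated to the same adult alpha genes together, it did so by 8.06-fold and 11.1-fold. The probe set 1417184_s_at gave 256, 184 and 244 units in SLC, against 389.6, 399 and 393 units in RS. On 1417714_x_at all 6 SLC and RS values lay at the floor. The other alpha probe sets were above it on every array, with 278 to 429 units in SLC and 546 to 594 units in RS on 1428361_x_at, and 184 to 238 units in SLC and 439.5 to 516 units in RS on 1452757_s_at.

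The single-gene probe set of Hba-a2, an adult alpha gene, did not follow this order. It was at 292, 252 and 354 units on PGCLC replicates 1, 2 and 3, against 277, 271 and 283 units in PGC, and was not called (log2 0.10, limma adjusted p = 0.73). Hba-a1 lay between 3.67 and 30.9 units on all 12 arrays and was under the filter, as was Hbb-b2.

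The genes of red cells other than globins were read from 5 lists. A listed gene need not be read out by red cells alone, and whether its signal came from red cells was not tested. Of 64 genes, 58 had a probe set of their own, 43 passed the filter and 15 did not. In PGCLC against PGC, 4 of 43 were higher and 0 were lower (9.30% and 0.00% of the list), beside 10.3% and 1.6% of all genes tested. The median log2 change was 0.04 for the 43 genes and 0.006 for all genes.

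Gata1, Klf1, Alas2, Slc4a1 and Epor, landmark genes of red cells, had low signals in PGCLC and PGC, while other regulators of the lists were bright, with Foxo3 at 1216 ± 39.6 units in PGCLC and 1004 ± 25.5 units in PGC. Gata1, the master regulator of red cell genes, stood at 88.3 ± 10.1 units in PGCLC and 70.3 ± 7.21 units in PGC (log2 0.33, limma adjusted p = 0.394). Klf1, the activator of adult beta-globin, gave 67.2, 77.2 and 29.8 units in PGCLC, against 64.1, 29.9 and 46.1 units in PGC. Alas2, which starts haem synthesis in red cells, gave 57.8, 55.1 and 25 units in PGCLC, against 5.52, 32.8 and 10.8 units in PGC. These signals are below or around the filter level.

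Slc4a1, the band 3 anion exchanger of the red cell membrane, gave 32.4, 93.8 and 37.2 units in PGCLC, against 71.4, 64.1 and 21.8 units in PGC. Epor, the erythropoietin receptor, gave 87.0, 30.4 and 69.5 units in PGCLC, against 13.5, 56.4 and 38.4 units in PGC. The arrays of both groups overlapped for both genes. Ahsp, which stabilises free alpha-globin, had no probe set of its own. Over the 15 genes under the filter, the highest signal on any array was 112 units in SLC, 139 units in RS, 127 units in PGCLC and 138 units in PGC, and the medians were 37.3, 55.5, 41.5 and 41.8 units in the same order.

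The 4 red cell genes called in PGCLC were Car2, Blvrb, Hebp1 and Dmtn. Car2, a carbonic anhydrase found in red cells, gave 2306, 262 and 1432 units on PGCLC replicates 1, 2 and 3, against 119 ± 11 units in PGC. It rose 8.04-fold (log2 3.01, SE 0.58, limma adjusted p = 0.00516). Blvrb, a biliverdin reductase, gave 938, 131 and 727 units, against 75.3 ± 38.9 units in PGC, and rose by 2.72 on the log2 scale (SE 0.62, limma adjusted p = 0.0102). Hebp1, a haem-binding protein, gave 1674, 214 and 1112 units, against 153 ± 13.8 units in PGC, and rose by 2.27 (SE 0.56, limma adjusted p = 0.0134). All 3 were highest on replicate 1 and lowest on replicate 2, the order of Hbb-bh1. Dmtn, the dematin of the membrane skeleton, had the same order, with 591, 150.3 and 444 units in PGCLC and 118 ± 20.1 units in PGC (log2 1.55, SE 0.42, limma adjusted p = 0.0196). Over all 43 red cell genes 12 (27.9%) had this order and 9 (20.9%) had that of Hbb-y, beside 32.1% and 30.1% of all genes, and of the 7 haem synthesis genes 1 had this order and 4 that of Hbb-y. In a limma fit of the 6 PGCLC and PGC arrays alone 0 of the 43 genes were called, and 171 of the 1685 calls over all genes were kept. Without PGCLC replicate 3 the calls of Car2 and Blvrb were kept and those of Hebp1 and Dmtn were not, and without PGCLC replicate 2 Cbfa2t3 and Bcl11a were called too.

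By role, 0 of 11 regulators were called in PGCLC against PGC by limma, and the largest changes were those of Cbfa2t3, a co-repressor partner of Tal1 (log2 1.25, adjusted p = 0.115), Bcl11a, a repressor of embryonic and fetal globins (-0.75, adjusted p = 0.0774), and Myb (-0.47, adjusted p = 0.352). Of 7 haem synthesis genes 0 were called, with Alad, the enzyme of its second step, at -0.69 (limma adjusted p = 0.00966, under 2-fold), Ppox at 0.41 and Uros at -0.25. Of 6 iron uptake genes 0 were called, with the mitochondrial iron carrier Slc25a37 at 0.59, Abcb10 at 0.36 and the transferrin receptor Tfrc at 0.35. Of 11 membrane and skeleton genes Dmtn alone was called, and Icam4 stood at -0.69 and Rhd at -0.44. Of 8 other red cell proteins 3 rose and 0 fell. At an unadjusted p under 0.05 limma gave 2 regulators higher and 1 lower, 1 haem synthesis gene lower and 1 iron uptake gene higher.

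**Figure D3:**
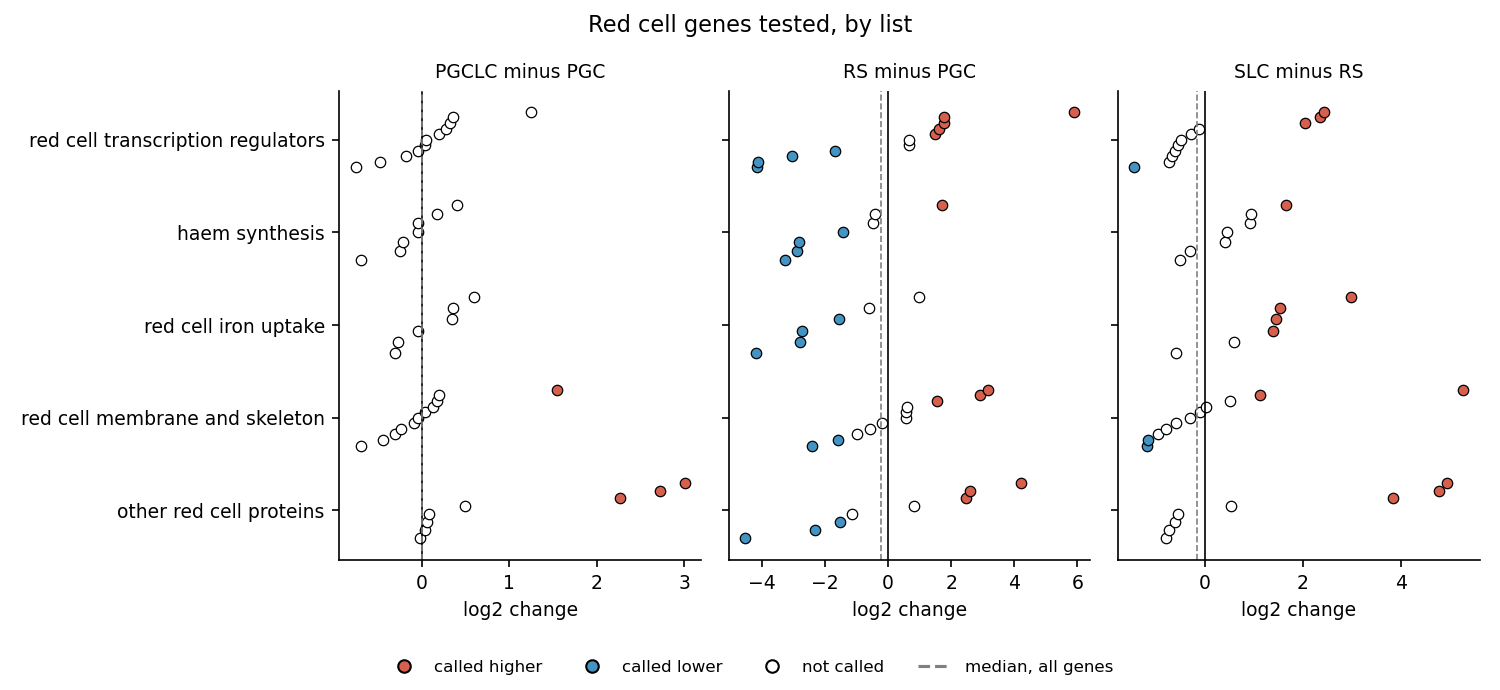
Log2 change of each of the 43 red cell genes tested, in PGCLC minus PGC, RS minus PGC and SLC minus RS, with the genes of a list on 1 row, filled points for called genes and a dashed line at the median of all genes. In PGCLC minus PGC most genes lie near 0 and the called genes lie to the right, and in RS minus PGC the genes of each list are spread to both sides.

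Between the stages the same lists moved more widely. In RS against PGC 12 of 43 rose and 17 fell (27.9% and 39.5%), beside 31.5% and 37.2% of all genes, with a median of -0.48 for the list and -0.22 for all genes. Sox6, a repressor of embryonic beta-globin in red cells, rose 59.5-fold in RS, to 2488 ± 24.4 units in RS against 42.6 ± 10.1 units in PGC (log2 5.89, limma adjusted p = 1.45e-10). Ldb1, a bridge of the Gata1 complex, and Myb fell, with log2 changes of -4.16 and -4.11.

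Most haem and iron genes were lower in RS. Urod, Cpox and Alad fell (log2 -3.26, -2.88 and -2.82) with Ppox, so that 4 of 7 haem synthesis genes fell, and Alas1 rose. Tfrc, which imports iron bound to transferrin, stood at 272 ± 27.5 units in RS and 4919 ± 136 units in PGC and fell by 4.18, and Abcb10, Glrx5 and Slc25a37 fell too, making 4 of 6 iron uptake genes. Among membrane genes Cldn13, at the floor on all 3 PGC arrays, was at least 9.04-fold higher in RS, Xk rose by 2.91 and Icam4 fell by 2.42. Among the other proteins Bpgm, which makes the oxygen-releasing ligand of haemoglobin, rose by 4.21 to 4472 ± 378 units in RS against 242 ± 26.1 units in PGC. Prdx2, an abundant peroxidase of red cells, fell by 4.53 to 333 ± 77.4 units in RS against 7589 ± 199 units in PGC, and Epor rose by 2.60.

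In SLC against RS 13 of the 43 rose and 3 fell (30.2% and 6.98%), beside 23.5% and 3.32% of all genes, with medians of -0.09 and -0.15. This split depends on the scaling, since quantile normalization gave 11 higher and 11 lower and median centring 9 higher and 16 lower. Aqp1, the water channel of red cell membranes, reached 1279 ± 43.0 units in SLC and 25.6 ± 13.6 units in RS, at least 38.5-fold higher in SLC (log2 5.27, limma adjusted p = 3.18e-07). Hebp1 and Blvrb, at the floor on all 3 RS arrays, were at least 30.7-fold and 27.1-fold higher in SLC, and Prdx2 rose by 3.83. Cldn13 and Sptb, the beta-spectrin gene, fell (-1.18 and -1.15), as did the regulator Lyl1. Among regulators Foxo3, Ldb1 and Zbtb7a rose by 2.42, 2.35 and 2.05. Of the iron genes Slc25a37, Tfrc and Glrx5 rose by 2.97, 1.54 and 1.45, with Abcb10, and of the haem genes Urod rose by 1.65, while Cpox (0.94) and Ppox (0.93) were under 2-fold. Under median centring Tfrc, Glrx5 and Abcb10 were not called, and under quantile normalization Abcb10 was not. Beside these changes, 10 of the 12 fetal gonad somatic markers rose and 0 fell in SLC against RS (median log2 3.26), with summed signals of 37691 to 38802 units in SLC and 909 to 1121 units in RS, and their part in the changes was not tested. All embryonic globin values in SLC other than those of Hba-x were at the floor.

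Most markers of germ cells and of the gonad moved in the order of Hbb-y. Of 9 germ cell markers 7 were highest on PGCLC replicate 2 and lowest on replicate 1, beside 30.1% of all genes. Their summed signal was 24489, 66036 and 46066 units on PGCLC replicates 1, 2 and 3, against 71672 to 76242 units in PGC. Of 12 fetal gonad somatic markers 10 had this order, with sums of 3872, 11318 and 6653 units in PGCLC, against 3983 to 5109 units in PGC, and 3 of them at the floor on replicate 1. Of 4 endoderm markers 2 had it, with sums of 243, 651 and 325 units in PGCLC, against 965 to 979.8 units in PGC. The germ cell marker Tfap2c had the reverse order, with 2695, 1058 and 1823 units on PGCLC replicates 1, 2 and 3. So did the gonad marker Dlk1, with 1174, 570 and 1064 units. Ddx4, Dnd1 and Dazl, germ cell RNA regulators, stood at -1.75, -1.54 and -1.42, of which Dnd1 was called lower by limma (adjusted p = 0.0383). The part of these cells in the Hbb-y signal was not tested.

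Most white blood cell markers that passed the filter moved in the order of Hbb-bh1. Of 7 markers 5 were highest on PGCLC replicate 1 and lowest on replicate 2, and 0 had the order of Hbb-y, beside 32.1% and 30.1% of all genes. In RS against PGC 4 of the 7 markers rose too, namely Csf1r, Adgre1, Lyz2 and Mpo, beside 31.5% of all genes. The sum of the 7 markers was 2460.01, 786 and 1885 units on PGCLC replicates 1, 2 and 3, against 395 to 462 units in PGC. Lyz2, with 70.0, 53.7 and 46.7 units in PGCLC, and Tyrobp, with 85.0, 103 and 105 units, had neither order. Elane, Cd3e and Fcer1g were under the filter. Csf1r, the receptor of macrophage growth factor, stood at 559 ± 261 units in PGCLC and 76.6 ± 19.6 units in PGC and rose by 2.78 (limma adjusted p = 0.000657), and Cd68, Laptm5 and Adgre1 rose by 2.33, 1.72 and 1.28. In a limma fit of the 6 PGCLC and PGC arrays alone, 171 of the 1685 calls over all genes were kept. Whether these markers were among them was not recorded. Ptprc, the antigen that defines white blood cells, was under the filter, with 39.3, 40.4 and 13.2 units in PGCLC and 28.9, 9.32 and 25.8 units in PGC. Of the other red cell proteins 7 of 8 had the order of Hbb-bh1. Of all 43 red cell genes 12 had it, or 27.9%, beside 32.1% of all genes. The part of other cell types in the Hbb-bh1 signal was not tested.

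Blood vessel and yolk sac markers were mixed. On the PGCLC arrays 4 of 7 endothelial markers had the order of Hbb-bh1 and 2 had that of Hbb-y, beside 32.1% and 30.1% of all genes. Of 7 endothelial markers Pecam1, also a surface protein of early germ cells, fell by 1.08 (limma adjusted p = 0.0464), Kdr and Esam stood at 0.94 and 0.93, and the sum was 1783 to 1879 units in PGCLC and 1893 to 2218 units in PGC. Of 4 megakaryocyte markers 0 were called by limma, with Pf4, Itga2b and Vwf at 0.87, 0.81 and 0.66 and 1 higher at an unadjusted p under 0.05. Their sum was 489 to 548 units in PGCLC and 256 to 361 units in PGC. Of 6 primitive streak and yolk sac mesoderm markers Hand1 alone rose (log2 1), with Etv2 at 0.58 and Eomes at 0.42, and sums of 779.8 to 835 units in PGCLC and 516 to 747 units in PGC. Of the endoderm markers Afp, at the floor on all 3 PGCLC arrays, was at least 5.94-fold lower in PGCLC, Apoc2 fell (-1.67) and Amn stood at -0.46. Among the gonad markers Dlk1 and Col1a1 rose by 1.93 and 1.54 with Maf, and Tcf21 stood at -1.59 (limma adjusted p = 0.217).

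**Figure D4:**
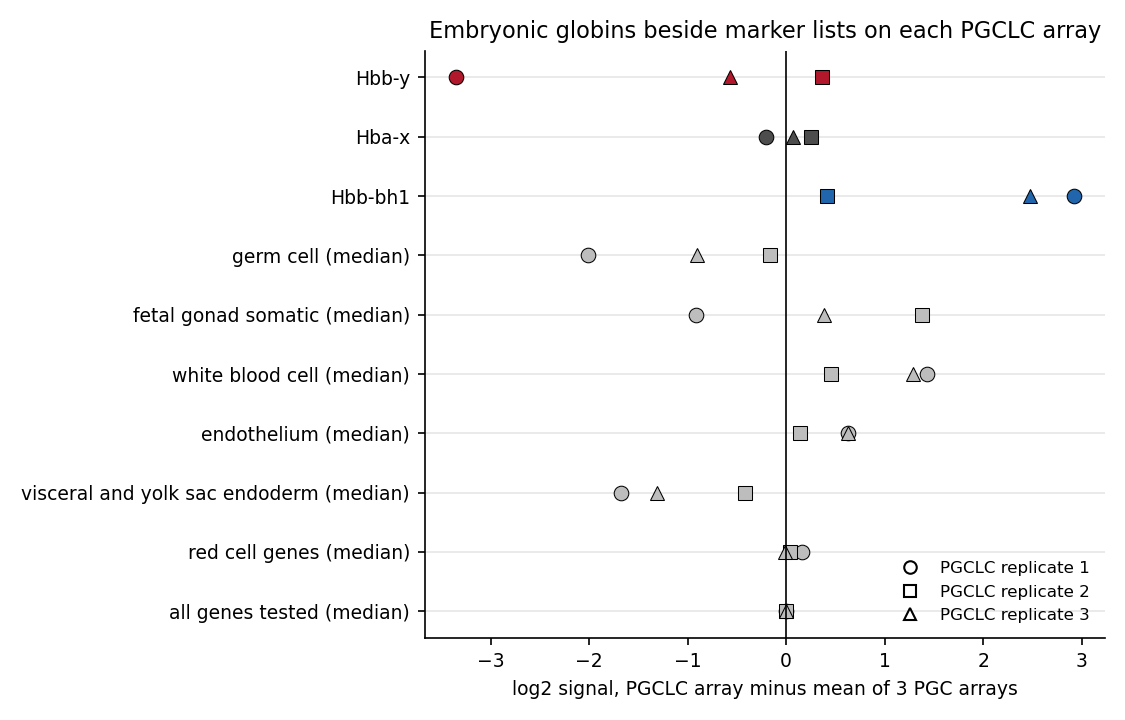
Log2 difference from the PGC mean on PGCLC replicates 1, 2 and 3, for the brightest probe set of each embryonic globin and as the median over the measured members of each marker list. Germ cell, gonad and endoderm lists are highest on replicate 2 and lowest on replicate 1, and the white blood cell list is highest on replicate 1.

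Genes nearest to the members were found by the root mean square log2 difference over all 12 arrays, after each gene's PGC mean was removed. The 10 genes nearest to the mean of the 3 members were Mcm3 (0.37), Depdc1a (0.38), Cenpa (0.39), Rhpn2 (0.41), Mycn (0.43), Gdf3 (0.44), Fbxo5 (0.44), Epp13 (0.47), Rfc5 (0.49) and Otx2 (0.49). The mean averages Hbb-y and Hbb-bh1, which run in opposite orders on the PGCLC arrays. Mcm3, a DNA replication gene, gave 6404, 7461 and 6655 units on PGCLC replicates 1, 2 and 3, against 7944, 7591 and 7743 units in PGC, without the spread that either beta-like gene showed among the cultures.

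The genes nearest to each member alone were looked up after the values were seen. Dppa3, a germ cell and oocyte factor, was nearest to Hbb-y at 0.64, with 3567, 19189 and 11456.5 units on PGCLC replicates 1, 2 and 3, against 21588, 20850.1 and 22005 units in PGC. L1td1 (1.13), Dppa5a (1.22), Sox2 (1.40) and Dppa4 (1.49) followed, and lay farther from Hbb-y. L1td1 and Dppa4 had the order of Hbb-y on the PGCLC arrays, and Dppa5a and Sox2 had the reverse. On PGCLC replicates 1, 2 and 3 Dppa5a gave 27029, 19212 and 23364 units and Sox2 gave 9677, 6490 and 8573 units. Calcoco2 was nearest to Hbb-bh1 at 0.35, with 1739, 379 and 1132 units in PGCLC, against 312, 434 and 247 units in PGC. Ldoc1 (0.36), Dsp (0.37), Frem2 (0.46) and Cdcp1 (0.48) followed. Ntn1 was nearest to Hba-x at 0.42, with Grhl3 (0.43) and Zfp518a (0.44) next.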

How the data were processed

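Signals are linear intensities as the authors deposited them, 1 per probe set, made with MAS5 per the submitters' processing notes, without a version. The 2% trimmed mean was 500.0 on all 12 arrays. The authors' scaling was kept, and the number of arrays limits the precision.

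Values under 30.7 units (25th percentile) were raised to it before log2. Left out were 64 control probe sets, 932 with several symbols and 9160 with none, apart from the shared globin probe sets. Symbols were checked by Entrez identifier for 34741. Kept were probe sets above 92.0 units (the median) on at least 3 arrays, the brightest of each gene, giving 14197 genes, 6293 with several.

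All 12 arrays entered a limma fit (3.58.1, R 4.3.3) of 4 group means with an intensity trend, tested on simulated data. P values carry the Benjamini-Hochberg adjustment over all genes tested and measure the spread between these arrays only. Folds are differences of mean log2 values, written "at least" if the lower group touched the floor, unless mean signals gave a smaller ratio.

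The members and the 15 gene lists were chosen with earlier results of these data known. Genes named by rule are the members, landmark red cell genes, the 3 largest changes of a list, and the 10 genes nearest to the members. Others are named to show calls, orders on the PGCLC arrays or genes under the filter. Replicate numbers did not pair arrays (correlation of deviations -0.02 to 0.13). Alternatives were other floors, no filter, quantile normalization, median centring, the mean of all probe sets, 6 arrays alone, a replicate block and leaving out each array.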

Additional observations from a re-analysis of the deposited data

How the results depend on the processing

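Under the other floors, scalings and the mean of all probe sets, the difference between PGCLC replicates 2 and 1 kept its sign for each member. PGCLC replicate 2 minus replicate 1 stayed between 3.70 and 3.90 for Hbb-y, between -2.73 and -2.33 for Hbb-bh1 and between 0.45 and 0.64 for Hba-x. PGCLC minus PGC depended on single cultures, at -1.96 to -0.10 for Hbb-y with 1 array left out (without PGCLC replicates 2 and 1), 1.45 to 2.70 for Hbb-bh1 (without PGCLC replicates 1 and 2) and -0.08 to 0.16 for Hba-x. Median centring gave -0.20 for Hba-x, and quantile normalization -0.05.

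For PGCLC minus PGC, the 6 arrays alone gave 168 genes higher, 7 lower and 0 red cell genes, with 4723 genes at an unadjusted p under 0.05 in limma. Calls of cell type markers and of genes that handle haem were not followed in that fit. Leaving out 1 array gave 958 (without PGCLC replicate 3) to 2122 genes higher, 58 (without PGCLC replicate 1) to 757 lower (without PGCLC replicate 2), and 2 to 6 red cell genes. Dropping PGC replicates 1, 2 and 3 left 97, 113 and 112 lower, and dropping PGCLC replicate 3 left 88. Quantile normalization gave 399 lower and median centring 707, with 72.3% and 59.9% of calls higher against 86.5% on the authors' scaling. For SLC minus RS, these scalings gave 2767 and 5628 lower, with 48.1% and 29.4% of calls higher against 87.6%, and median centring gave 25 red cell genes called. With median centring the all-gene median was -0.24 in PGCLC minus PGC, against 0.006, and -0.76 in SLC minus RS, against -0.15. The causes were not tested.

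With the replicate number as a block, which pairs nothing by the check, the counts were 1456 higher and 224 lower in PGCLC minus PGC, 4470 and 5272 in RS minus PGC, and 3338 and 467 in SLC minus RS, and no count moved by over 1.5 times. Signals under the floor limit what can be said of SLC and RS.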

Other observations

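Of 7 genes that handle free haemoglobin and haem, 3 rose and 0 fell in PGCLC against PGC in limma, beside 10.3% and 1.6% of all genes. At an unadjusted p under 0.05, 4 were higher and 2 lower, among them Hmox2, the constitutive haem oxygenase (log2 -0.35, limma adjusted p = 0.00648, under 2-fold). Blvra, a biliverdin reductase, gave 588, 194 and 495 units on PGCLC replicates 1, 2 and 3, against 116 ± 30.3 units in PGC (log2 1.76, limma adjusted p = 0.00624). Slc40a1, the iron exporter, gave 1111, 516 and 909 units in PGCLC, against 325 ± 15.9 units in PGC (log2 1.31, limma adjusted p = 0.00576). Hmox1, the inducible haem oxygenase, gave 507, 318 and 419.8 units in PGCLC, against 196 ± 14.5 units in PGC (log2 1.06, limma adjusted p = 0.00833). All 3 were highest on replicate 1 and lowest on replicate 2, as Hbb-bh1 was.

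Between the stages this list had 2 rises and 4 falls in RS against PGC, with Hmox2 up by 2.86 on the log2 scale, and Slc40a1 and Fth1, a ferritin chain, at -3.20 and -2.75. In SLC against RS 5 of 7 rose and 0 fell, beside 23.5% and 3.32% of all genes. Among them Hp, which binds free haemoglobin, was at the floor on all 3 RS arrays and at least 411-fold higher in SLC, and Lrp1, a receptor for haem-carrying hemopexin, and Slc40a1 rose by 5.39 and 3.43. The fetal gonad somatic markers rose in the same comparison, 10 of 12, and their part was not tested. Of the globins of other tissues, Cygb stood at 507 ± 46.7 units in SLC and 39.5 ± 31.1 units in RS and rose by 3.60 in limma, and Ngb fell by 1.26 in SLC and rose by 1.96 in RS against PGC. In PGCLC against PGC Ngb and Cygb stood at 0.23 and -0.13, and neither was called.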
